A study of Mus musculus with 10 samples.

Results

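The oxidative phosphorylation subunits described here are the nuclear-encoded building blocks of mitochondrial complexes I to V. They were taken by gene symbol from both expression tables of the series (Nduf with a letter a, b, c, s or v and a number, Sdha to Sdhd, and symbols that begin with Uqcr, Cox4 to Cox8 or Atp5), where the mean over all libraries of a table was at least 1 RPKM. RPKM is reads per kilobase of transcript and 1 M reads, so that levels can be compared between genes of different length. For SB431542, 80 symbols matched and 75 of these passed the limit, among 10842 genes tested of 17680 entries. For T-5224, 78 matched and 75 passed, among 10809 genes tested of 16742 entries. There were 74 subunits tested in both tables and 76 in either. Ndufa4l2 was left out by the rule.

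The respiratory chain passes electrons from NADH (complex I) and succinate (complex II) through ubiquinone to complex III, and on through cytochrome c to complex IV, which reduces oxygen. Complexes I, III and IV pump protons across the inner mitochondrial membrane, and complex V, the ATP synthase, uses the returning protons to make ATP. Each complex has a catalytic core and, except for complex II, many small accessory subunits that wrap around it. Apart from the subunits encoded by mitochondrial DNA, all are made in the cytosol from nuclear genes and have to be imported in matching amounts. The mitochondrially encoded subunits were not analysed here.

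The cells were ASZ001, a mouse basal cell carcinoma (BCC) line that the study uses as its resistant BCC model, in low-serum medium in every group. Cells received either DMSO (3 libraries) or 10 µM SB431542 (3 libraries), an inhibitor of the TGFβ receptor kinase ALK5, or, in a separate experiment, either DMSO (2 libraries) or 20 µM T-5224 (2 libraries), an inhibitor of AP-1. Treatment lasted 24 h. The comparisons ask which transcripts depend on TGFβ or on AP-1 signaling in these cells, and all of them rest on 1 cell line. Comparisons were made within an experiment, since each had its own DMSO libraries.

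Depth lay between 31.8 and 51.3 M reads a library. All 7 basal keratinocyte markers were expressed in the DMSO libraries, with Krt5 at 4889 RPKM in the SB431542 table and 6001 RPKM in the T-5224 table. Markers of other cell types stayed at or below 0.58 RPKM in every library, except Cd68 (7.01 to 33.2 RPKM) and Pecam1 (2.60 to 11.8 RPKM). Ptprc and Dct were at 0 in the DMSO libraries of the SB431542 table, and Ptprc, Cd3e, Cdh5 and Myh3 with T-5224. In the SB431542 experiment, DMSO replicate 1 stood apart from the other 2 DMSO libraries. Its ribosomal RNA precursor transcript Rn45s was at 770.3 RPKM, against 2101 and 2155 RPKM in the others, and SB431542 results are therefore given with and without it. In the T-5224 experiment Rn45s was at 3401 and 3473 RPKM in DMSO and at 1862 and 5184 RPKM with T-5224, and leaving out either T-5224 library kept 58 of the 63 subunit calls described below.

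In DMSO, subunit mRNAs were abundant in both tables. Their median level was 93.7 RPKM in the SB431542 table and 110.0 RPKM in the T-5224 table, against 12.7 and 12.1 RPKM over all genes tested. Atp5b, which encodes the catalytic β subunit of the ATP synthase head, was the highest subunit, at 793 RPKM in the SB431542 table and 1158 RPKM in the T-5224 table. Complex V also had a high median level (199.7 and 222 RPKM), and that of complex IV was 211 and 135 RPKM. All 4 subunits of complex II are core proteins. They ranged from 46.1 to 77.4 RPKM in the SB431542 table and from 56.0 to 144 RPKM in the T-5224 table. The lowest subunit that passed in the SB431542 table was Atp5s, a coupling factor rather than a structural part, at 2.00 RPKM in DMSO. Just outside the limit there was Cox6a2, with a mean of 0.221 RPKM. In the T-5224 table Atp5s was at 2.34 RPKM in DMSO, and just outside the limit was Atp5g2 with a mean of 0.520 RPKM.

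With T-5224, subunits of the same complex moved in opposite directions. Of the 75 tested, 32 fell and 31 rose (adjusted p under 0.05, limma), and 12 did not pass. Without Cox6a2, 32 of 74 fell and 30 rose. Over all genes tested 39.4% were lower and 40.3% higher, close to the 42.7% and 41.3% of the subunits. Beyond 2-fold, 5 subunits were lower (Uqcrh, Atp5k, Cox6b1, Uqcr11 and Atp5g3) and 1 was higher (Cox6a2, which entered the test only through its T-5224 libraries), where 10.6% of all genes were lower and 10.4% higher beyond 2-fold. The median log2 fold change of the subunits was 0.01, against 0.00 over all genes, and the middle 50% of subunits spanned 0.79 on the log2 scale, against 1.0 for all genes. In 65 of the 75 the libraries of the 2 groups did not overlap, with 33 (Cox6a2 included) above and 32 below all DMSO libraries. Of all genes tested, 45.1% were above and 44.5% below.

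The same experiment moved the markers of the cell line. All 7 basal keratinocyte markers fell with T-5224, 5 of them beyond 2-fold, and their summed level went from between 12497 and 13278 RPKM in DMSO to between 1785 and 1842 RPKM. Markers of other cell types summed to between 27.9 and 31.1 RPKM in DMSO and to 37.5 RPKM in both T-5224 libraries, with Cd68 going from 17.6 to 33.0 RPKM and Pecam1 from 11.3 to 4.39 RPKM. In bulk RNA, fewer cells of a type and less RNA per cell cannot be told apart. The part of these shifts in the subunit values was not tested.

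**Figure D1:**
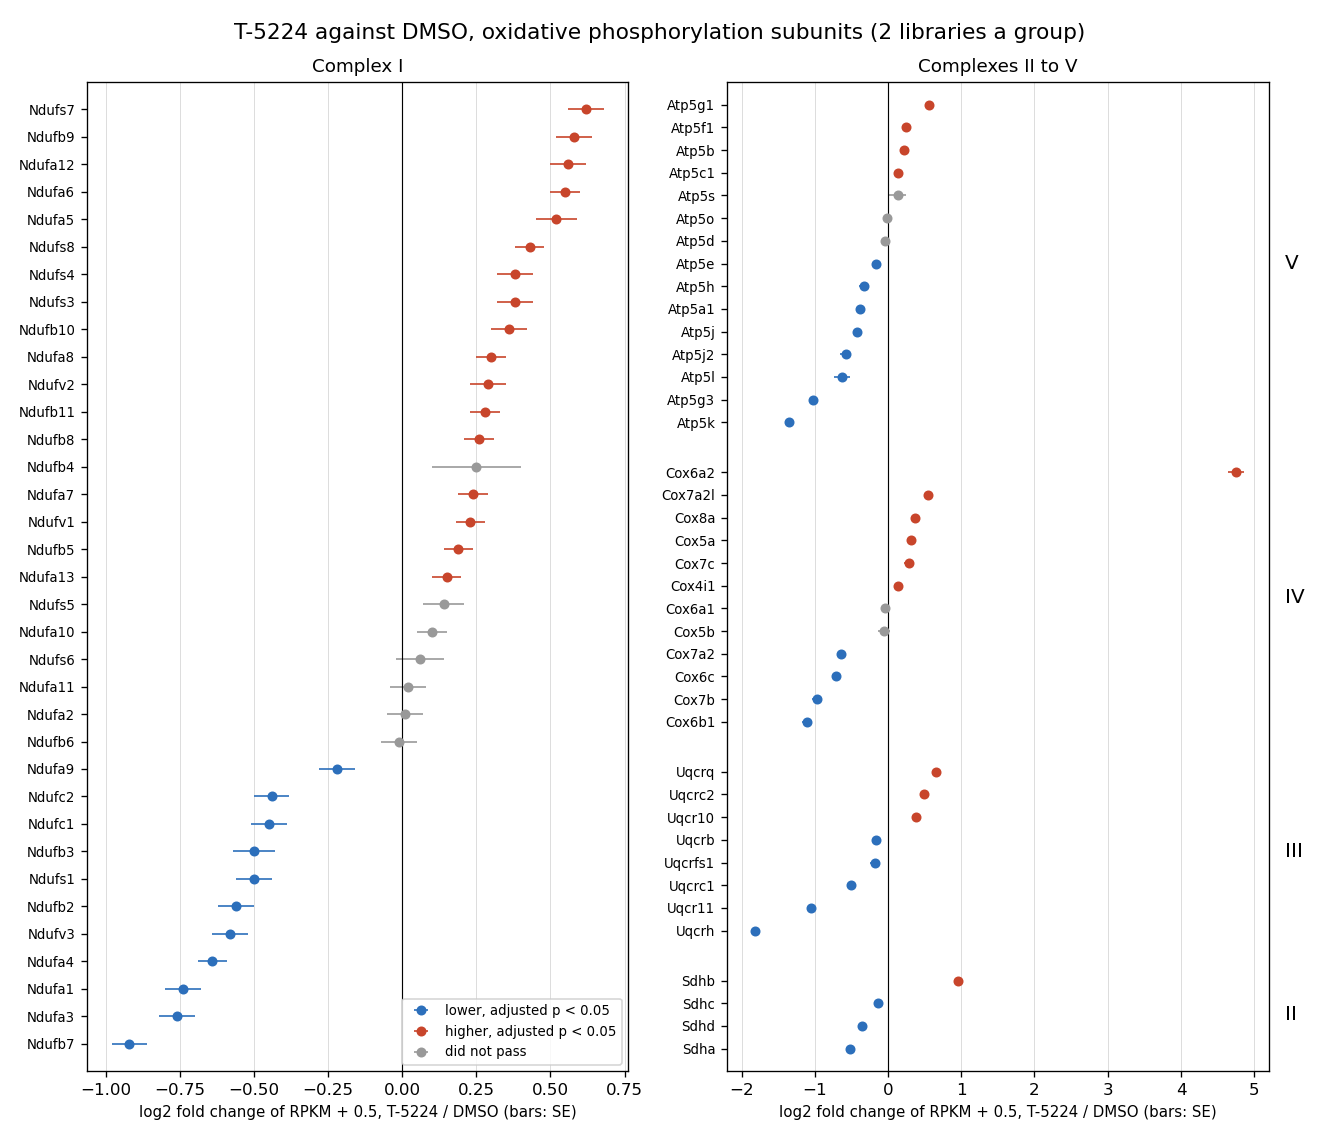
Log2 fold change (T-5224 over DMSO, on log2 of RPKM + 0.5) of 74 of the 75 subunits tested, with complex I on the left and complexes II to V on the right. Points are estimates from 2 libraries a group, bars are standard errors, and color gives the call. In complexes II to V the scale reaches 5 because of Cox6a2 at 4.75, and every complex holds both lower and higher subunits.

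Complex III, which carries electrons from ubiquinone to cytochrome c, held the largest fall. Uqcrh, the hinge protein that sits beside cytochrome c1 (chromosome 4 of NCBIM37, the assembly behind mm9, 115739570 to 115747676, minus strand), was at 255 and 257 RPKM in the DMSO libraries and at 74.3 and 71.2 RPKM with T-5224. Its log2 fold change was −1.81 (standard error 0.05, adjusted p = 6.15e-11). Gm12854 overlaps it on the other strand and was not analysed here. Uqcr11, a small membrane subunit (chromosome 10, 79865742 to 79869575, minus strand), was at 105 and 108 RPKM in DMSO and at 50.4 and 52.4 RPKM with T-5224 (log2 fold change −1.05, standard error 0.05, adjusted p = 7.42e-09). In both genes, replicates differed by far less than the groups. Uqcrq, another small membrane subunit of the complex, went the other way, from 142 and 144 RPKM to 227 and 220.4 RPKM (log2 fold change 0.65). The core proteins were also divided. Uqcrc1 fell (−0.50) and Uqcrc2, its partner in the complex, rose (0.49). Uqcrfs1, the Rieske iron-sulfur protein, fell by 0.18 on the log2 scale (adjusted p = 0.00989) and Uqcr10 rose (0.38). In all, 5 of the 8 subunits fell and 3 rose, where 39.4% of all genes tested were lower and 40.3% higher. Cyc1, the cytochrome c1 protein that the symbol rule does not reach, rose from 122 to 249 RPKM (log2 fold change 1.02, adjusted p = 7.20e-09).

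Complex II oxidizes succinate and is also part of the citric acid cycle. Sdhb, its iron-sulfur subunit (chromosome 4, 140517118 to 140535108, plus strand), was at 108 and 106 RPKM in DMSO and at 207 and 208 RPKM with T-5224, the largest rise of a subunit that was abundant in DMSO (log2 fold change 0.95, standard error 0.05, adjusted p = 9.59e-09). The other subunits of the complex fell. Sdha, the flavoprotein that binds succinate, was at 56.1 and 55.8 RPKM in DMSO and at 39.9 and 37.7 RPKM with T-5224 (log2 fold change −0.52, adjusted p = 4.21e-06). Sdhd, a membrane anchor, fell by 0.35 (adjusted p = 1.15e-04) and Sdhc, the other anchor, by 0.13 (adjusted p = 0.0485, but 0.354 without T-5224 replicate 2). In DMSO the RPKM of Sdhb was 107 and that of Sdha 56.0, and with T-5224 they were 207 and 38.8.

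**Figure D2:**
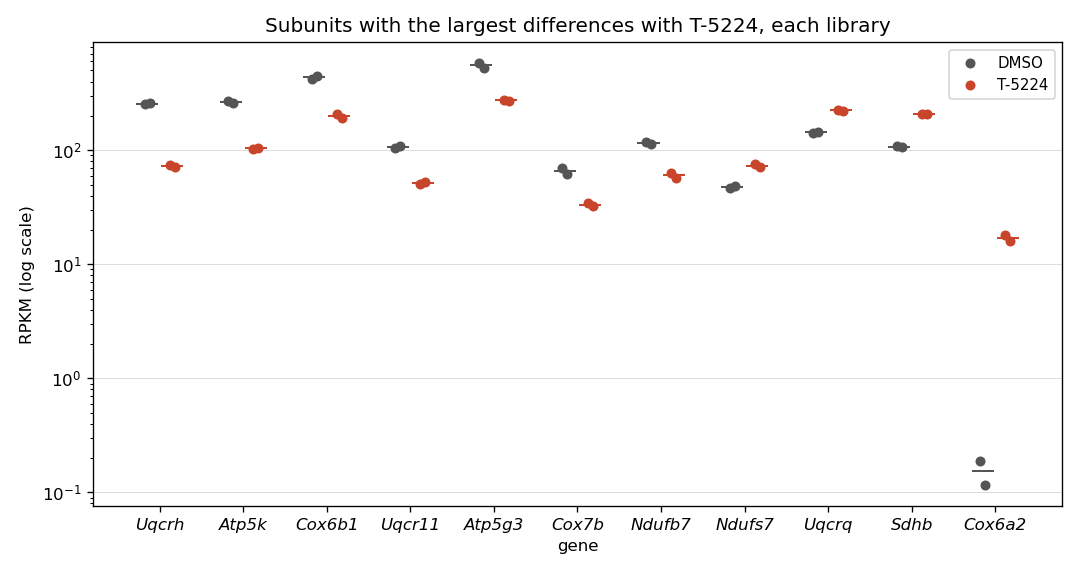
RPKM in each library (log scale) of the subunits with the largest differences with T-5224 and of 4 that rose, with short lines at the group means. DMSO libraries are gray and T-5224 libraries red. In none of these genes do the groups overlap, but the genes are shown for their differences. Cox6a2 passed the RPKM limit only through its T-5224 libraries. Of all genes tested, 45.1% lay above and 44.5% below all DMSO libraries.

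Complex IV, cytochrome c oxidase, has 12 tested subunits. Of these, 4 fell, 6 rose (Cox6a2 included) and 2 did not pass, where 39.4% of all genes were lower and 40.3% higher. Cox6b1, which faces the intermembrane space (chromosome 7, 31401993 to 31411170, minus strand), was at 425 and 444 RPKM in DMSO and at 209 and 193 RPKM with T-5224 (log2 fold change −1.11, standard error 0.06, adjusted p = 7.94e-09). Cox7b, Cox6c and Cox7a2, small single-span membrane subunits, fell by 0.97, 0.71 and 0.64 on the log2 scale. Cox8a and Cox5a rose (0.37 and 0.31). Cox7a2l, which helps complex III and complex IV join into supercomplexes, rose from 48.5 and 49.9 RPKM to 74.2 and 70.6 RPKM (0.55). It is included in the 12 by its symbol, though it was not listed as a structural subunit of the complex. Cox4i1, the largest nuclear-encoded subunit, had a log2 fold change of 0.13 (adjusted p = 0.0456, but 0.290 without DMSO replicate 2). The paralogue Cox4i2, known from lung, was below the limit in both tables, as was Cox7a1, the heart and muscle counterpart of Cox7a2.

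Cox6a2 was the only subunit higher beyond 2-fold. It is the heart and skeletal muscle isoform of subunit VIa, and Cox6a1 is the isoform of most other tissues. Cox6a2 was at 0.189 and 0.116 RPKM in DMSO and at 18.1 and 16.0 RPKM with T-5224. These levels amount to about 4 and 3 reads in the DMSO libraries, and 609 and 516 reads in the T-5224 libraries, so it passed the limit through the treated libraries alone. Relative to depth, the ratio of the groups was 113 (95% exact interval 54.9 to 283, counting error only). On the scale of log2(RPKM + 0.5), which understates the change of a gene so low in DMSO, the log2 fold change was 4.75. No p is given, since a gene that passes the limit through the group where it is high had to differ. Cox6a1 was at 694 and 727 RPKM in DMSO and at 705 and 676 RPKM with T-5224 and did not pass (log2 fold change −0.04, adjusted p = 0.491). Even with T-5224, the mean RPKM of Cox6a2 was 17.0, against 691 for Cox6a1. The muscle markers Acta1 and Myh3 were at or below 0.0820 RPKM in all 4 libraries. With SB431542, Cox6a2 had 8, 0 and 5 reads in DMSO and 14, 5 and 5 reads with the inhibitor (ratio 1.71, 95% exact interval 0.835 to 3.65).

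The coding sequences of both isoforms are shown because a rise of Cox6a2 beside an abundant Cox6a1 depends on reads being told apart. They are 339 and 294 bases long and match at 66.6% of 290 aligned bases, and the longest run that the 2 transcripts share is 12 bases. Cox6a2 lies on chromosome 7 of NCBIM37 from 135348950 to 135349880 on the minus strand, and Cox6a1 on chromosome 5 from 115795651 to 115798990 on the minus strand. The stretches below hold coding bases 211 to 330 of Cox6a1 and 166 to 285 of Cox6a2, with capitals at the 32 bases that differ.
Cox6a1: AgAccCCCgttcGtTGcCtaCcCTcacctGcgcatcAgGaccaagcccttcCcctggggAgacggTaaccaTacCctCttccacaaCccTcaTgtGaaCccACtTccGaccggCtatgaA
Cox6a2: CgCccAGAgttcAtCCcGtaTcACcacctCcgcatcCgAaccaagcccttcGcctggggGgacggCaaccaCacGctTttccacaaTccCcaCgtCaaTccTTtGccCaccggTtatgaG
A gene on the other strand, Itgad, overlaps Cox6a2. The library kit keeps strand, but whether counting used it is not given in the sources used here, so reads of the 2 genes cannot be told apart.

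Complex V makes ATP with a catalytic head and a rotating ring in the membrane. Here 8 of the 15 subunits tested fell, 4 rose and 3 did not pass, where 39.4% of all genes were lower and 40.3% higher. Atp5k, subunit e, which lies at the interface where ATP synthases pair in the membrane (chromosome 5, 108862263 to 108863467, minus strand), was at 269 and 260.4 RPKM in DMSO and at 103 and 104 RPKM with T-5224 (log2 fold change −1.35, standard error 0.05, adjusted p = 5.42e-10). The ring of subunit c is encoded by several genes for the same mature protein, and these differed. Atp5g3 (chromosome 2, 73746504 to 73749383, minus strand) was at 576 and 531 RPKM in DMSO and at 278 and 269 RPKM with T-5224 (log2 fold change −1.02, standard error 0.06, adjusted p = 1.46e-08). Atp5g1 rose from 56.3 and 56.4 RPKM to 83.2 and 82.9 RPKM (0.56, adjusted p = 1.19e-06). Atp5g3 was the higher of the pair in both groups. Atp5g1 has a copy of 99.8% identity elsewhere in the genome (described below), and no near-identical copy was found for Atp5g3. Mean DMSO levels of Atp5g1 and Atp5g3 were 56.3 and 553 RPKM here, and 165 and 289.9 RPKM in the SB431542 experiment. The part of the copy in the values of Atp5g1 was not tested. In the catalytic head, Atp5a1 fell by 0.38 (adjusted p = 4.01e-05), and Atp5b had a log2 fold change of 0.22 (adjusted p = 0.00248) that was 0.01 with quantile normalization (adjusted p 2.12e-04 to 0.642 over its alternatives). The central stalk subunit Atp5c1 rose (0.14) and Atp5e fell by 0.16. Atp5d did not pass (−0.04), but with quantile normalization it was at −0.14 (adjusted p = 0.00358). Without T-5224 replicate 2 the adjusted p of Atp5e was 0.0996 and that of Uqcrfs1 0.101, and without DMSO replicate 2 that of Atp5c1 was 0.251 and that of Atp5b 0.0815. Atp5j2, Atp5j and Atp5h, of the membrane part and side stalk, fell by 0.58, 0.43 and 0.33.

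In complex I, the entry point for NADH, 12 of 36 subunits fell, 17 rose and 7 did not pass. Of all genes tested, 39.4% were lower and 40.3% higher. None of the 36 moved beyond 2-fold, where 10.6% of all genes were lower and 10.4% higher beyond 2-fold. The core subunits that carry electrons were divided as well. Ndufs7, an iron-sulfur subunit next to the ubiquinone site, was at 46.4 and 48.8 RPKM in DMSO and at 75.9 and 70.6 RPKM with T-5224 (log2 fold change 0.62, standard error 0.06, adjusted p = 1.57e-06). Ndufs8, Ndufs3, Ndufv2 and Ndufv1, the last of which holds the NADH site, rose by 0.43, 0.38, 0.29 and 0.23 on the log2 scale. Ndufs1, the largest iron-sulfur subunit, was at 43.6 and 42.1 RPKM in DMSO and at 31.2 and 29.0 RPKM with T-5224 (−0.50, adjusted p = 1.15e-05). The 3 lowest values were those of accessory subunits. Ndufb7, an intermembrane space subunit, fell from 117 and 113 RPKM to 63.7 and 57.5 RPKM (−0.92, standard error 0.06, adjusted p = 6.25e-08), and Ndufa3 and Ndufa1 fell by 0.76 and 0.74. Ndufb9 rose from 296 and 274 RPKM to 437 and 412 RPKM (0.58), and Ndufa12 and Ndufa6 rose by 0.56 and 0.55. Ndufa12 and Ndufs3 have copies of 99.5% and 98.6% identity elsewhere in the genome (described below). Their mean DMSO levels were 42.0 and 21.1 RPKM here, and 173 and 48.9 RPKM in the SB431542 experiment. Ndufa4 is included in the 36 by its symbol, though it is now counted with complex IV. It was the most abundant Nduf gene in DMSO (649 and 609.8 RPKM) and fell to 409 and 397 RPKM (−0.64). Over the 15 subunits listed for electron entry and the catalytic core in complexes I, II, III and V, 6 fell, 8 rose and 1 did not pass.

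The subunits took up a slightly smaller share of all RPKM with T-5224. Their summed level was 3.68% and 3.74% of the table total in the DMSO libraries and 3.35% and 3.43% in the T-5224 libraries, without overlap. In the SB431542 experiment it went the other way, from 2.66% to 2.76% in DMSO and from 2.78% to 2.91% with the inhibitor. Of the 75 subunits, 31 had an annotated transcript under 1000 bases and a mean of at least 50 RPKM, and of these 13 fell and 13 rose (median −0.01). The 155 other genes within both limits had 51 lower and 83 higher, and a median of 0.21 on the log2 fold change scale. Transcript length was known for 89.4% of the genes tested.

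With SB431542, few subunit mRNAs passed the test. None of the 75 fell and 4 rose, where 10.0% of all genes tested were lower and 10.2% higher. At an unadjusted p under 0.05, 0 were lower and 18 higher (limma), where 17.0% of all genes were lower and 19.1% higher. None passed 2-fold in either direction, as 0.581% (lower) and 0.231% (higher) of all genes did. The median log2 fold change of the subunits was 0.10, against 0.01 over all genes, and the values ran from −0.22 to 0.49. In 24 of the 75, every SB431542 library lay above every DMSO library, and in 0 every one lay below, where 23.9% of all genes were above and 21.3% below.

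Of the 4 that were higher, 2 belong to complex II. Sdhb was at 69.7, 76.9 and 75.8 RPKM in DMSO and at 92.4, 95.4 and 89.4 RPKM with SB431542 (log2 fold change 0.32, standard error 0.06, adjusted p = 0.0108). Sdhd was at 42.9, 59.1 and 61.3 RPKM in DMSO and at 78.4, 75.1 and 73.1 RPKM with the inhibitor (0.49, standard error 0.13, adjusted p = 0.0366), with DMSO replicate 1 the lowest. Neither gene had overlapping groups. Ndufs7 of complex I was at 26.2, 32.6 and 30.4 RPKM in DMSO and at 37.8, 39.9 and 38.8 RPKM with SB431542 (0.39, standard error 0.08, adjusted p = 0.0185). Atp5l, subunit g of the ATP synthase and named here after its value was seen, was at 138, 149 and 151 RPKM in DMSO and at 164, 166 and 168 RPKM with SB431542 (0.19, standard error 0.05, adjusted p = 0.0460). Sdha (0.04), Sdhc (0.26), Ndufs1 (0.01), Ndufv1 (0.30) and Atp5b (0.22) did not pass. Sdhb and Ndufs7 were thus higher with each inhibitor against its own DMSO libraries, at log2 fold changes of 0.32 and 0.39 with SB431542 and 0.95 and 0.62 with T-5224, while Sdhd was higher with SB431542 and lower with T-5224. The difference between the inhibitors was not tested, since the tables were normalized separately. Of the 7 basal keratinocyte markers, 3 fell and 1 rose with SB431542, and their summed level went from between 10003 and 10172 RPKM to between 7025 and 7482 RPKM. Of the markers of other cell types, Pecam1 fell from 5.75 to 2.68 RPKM (adjusted p = 0.00103), and their sum went from between 12.7 and 17.3 RPKM to between 10.7 and 11.1 RPKM. The part of these shifts in the values of the subunits was not tested.

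**Figure D3:**
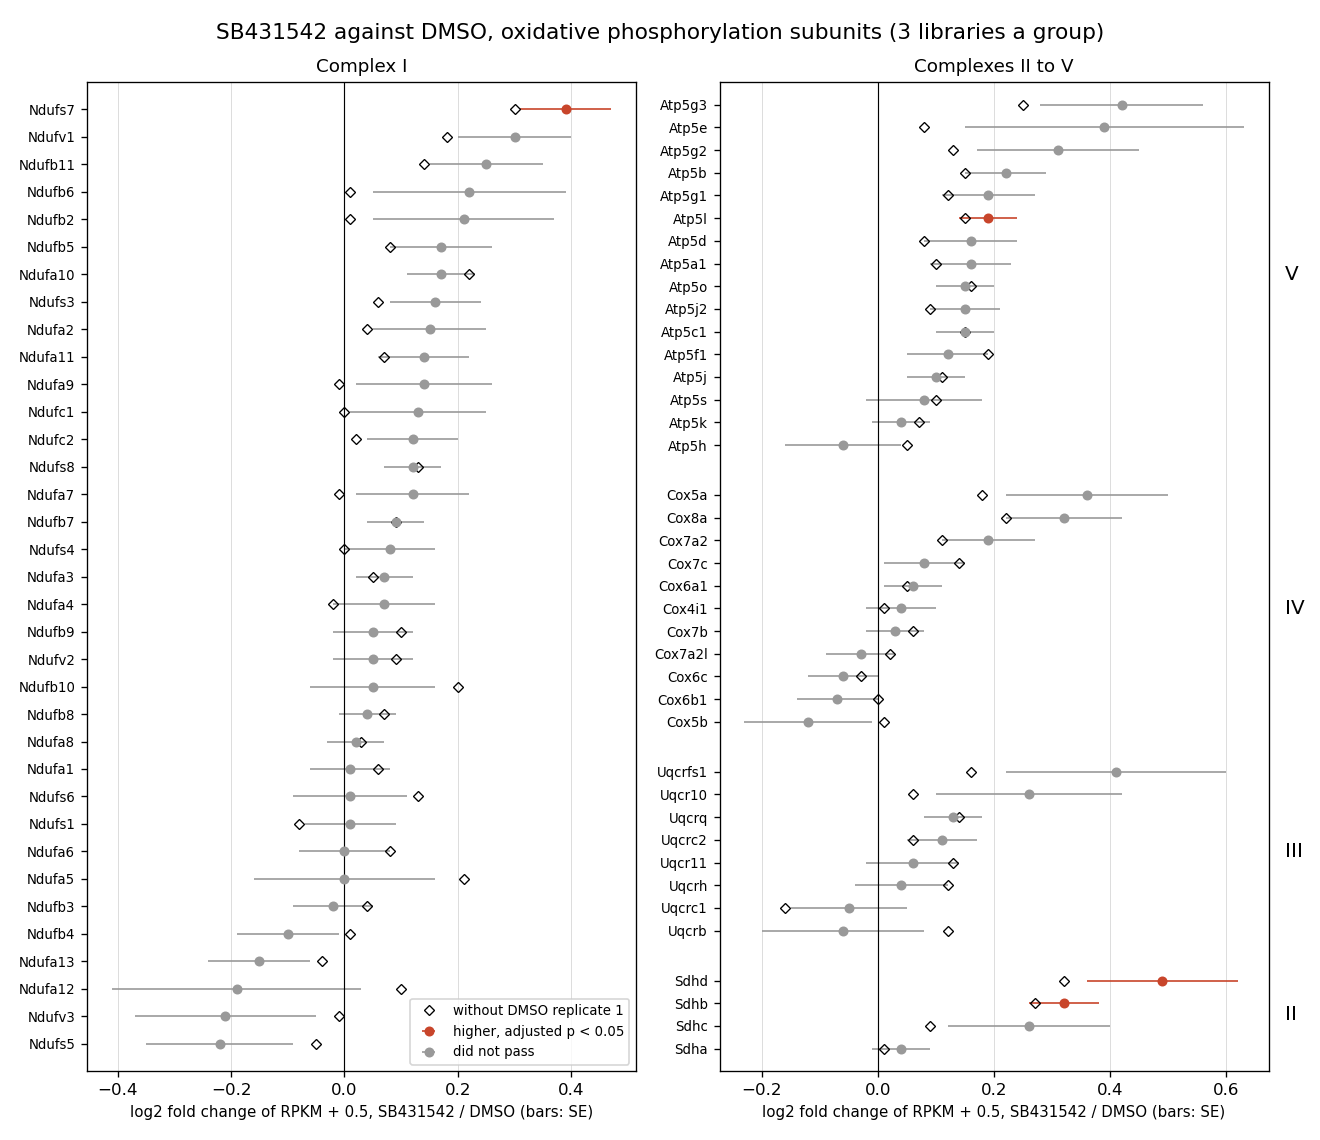
Log2 fold change (SB431542 over DMSO, on log2 of RPKM + 0.5) of 74 of the 75 subunits tested, with standard errors as bars and color for the call, from 3 libraries a group. Open diamonds give the same value without DMSO replicate 1. They lie closer to 0 for Atp5e and Uqcrfs1, for example, and farther from it for Ndufa5 and Uqcrb.

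The count depended on single libraries. Set against the mean of the other 2 DMSO libraries, DMSO replicate 1 differed by more than 0.3 on the log2 scale in 29 of the 75 subunits, 18 of them lower and 11 higher. The widest gaps were Atp5e, at 103 RPKM against 194 and 203 RPKM (−0.94), and Ndufa12, at 248 RPKM against 139.8 and 132 RPKM (0.87). No SB431542 library differed from its group by that much in any subunit. Without DMSO replicate 1, 25 subunits were higher and 1, Uqcrc1, was lower (log2 fold change −0.16, adjusted p = 0.0327), where 19.9% of all genes were higher and 17.6% lower. The 25 included the 4 above and 9 subunits of complex V, such as Atp5g3 (0.25, adjusted p = 0.00563) and Atp5f1 (0.19, adjusted p = 0.00249), and again none reached 2-fold. The median log2 fold change was then 0.08. Without DMSO replicate 2, 2 were higher (Ndufs7 and Sdhb), where 5.93% of all genes were. Without DMSO replicate 3, 5 were higher, where 7.80% of all genes were. Without SB431542 replicates 1 or 2, 0 were higher, where 3.28% and 2.78% of all genes were, and without SB431542 replicate 3, 1 was (Sdhb), where 2.85% were. Without SB431542 replicate 1 the adjusted p of Sdhb was 0.0530, that of Ndufs7 0.0625 and that of Sdhd 0.122. Without DMSO replicate 2, that of Sdhd was 0.0519. Atp5l lost its call without any library other than DMSO replicate 1 (adjusted p 0.0611 to 0.158), and also with quantile normalization (0.131), no trend (0.0637) and no filter (0.0645).

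**Figure D4:**
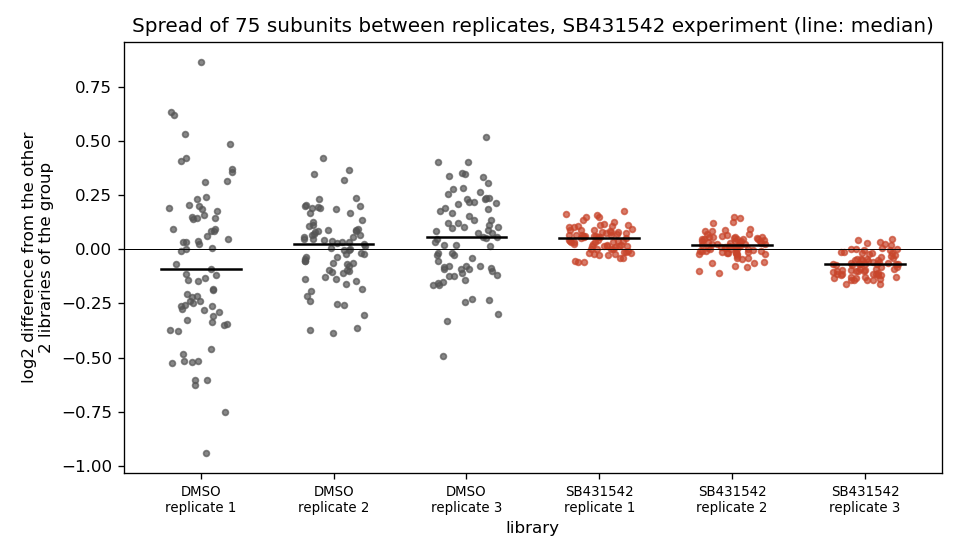
Log2 difference of each of the 75 subunits in a library from the mean of the other 2 libraries of its group, in the SB431542 experiment (points, with the median as a line). DMSO replicate 1 spreads from −0.94 to 0.87, and the 3 SB431542 libraries stay between −0.16 and 0.18.

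Many subunit genes have near-identical copies elsewhere in the mouse genome, to which their reads can also align. A search of each coding sequence against NCBIM37 found a copy of at least 95% identity over at least 50% of its length for 20 of the subunits tested in the T-5224 table and none for 54, and Ndufb8 was not searched. Of the 20 with a copy, 8 were lower and 7 higher with T-5224. Of the 54 without such a copy, 24 were lower and 23 higher (Cox6a2 included), where 39.4% of all genes were lower and 40.3% higher. Among the 5 lower beyond 2-fold, Uqcr11 (copies up to 98.8% identical) and Atp5k (up to 95.8%) have copies, and Uqcrh, Cox6b1 and Atp5g3 do not.

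DMSO levels also differed between the tables. The 2 tables were normalized separately, so their DMSO levels are set side by side only as a description. All 13 subunits with a copy of at least 98% identity were lower in DMSO in the T-5224 table than in the SB431542 table, 11 of them at under 50% of the level, with a median ratio of 0.337. Of the 54 without a copy, 3 were lower and 0 were under 50%, with a median ratio of 1.51. Atp5g2, the remaining gene for subunit c, was at 184 RPKM in the SB431542 table and at 0.505 RPKM in the T-5224 table. Atp5l, with 8 copies, the best of them identical, was at 146 and 3.58 RPKM, and Ndufb4 at 131 and 4.42 RPKM. In the T-5224 table Atp5l rested on 53 and 77 reads in DMSO and 58 and 52 reads with T-5224, so its fall of 0.63 is a change in few reads. Across the subunits with a copy of at least 98%, DMSO replicate 1 of the SB431542 experiment differed from the other 2 by a median of 0.21 on the log2 scale, and across those with no copy of 95%, Ndufb8 included, by a median of −0.19. The cause of these differences was not tested.

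**Figure D5:**
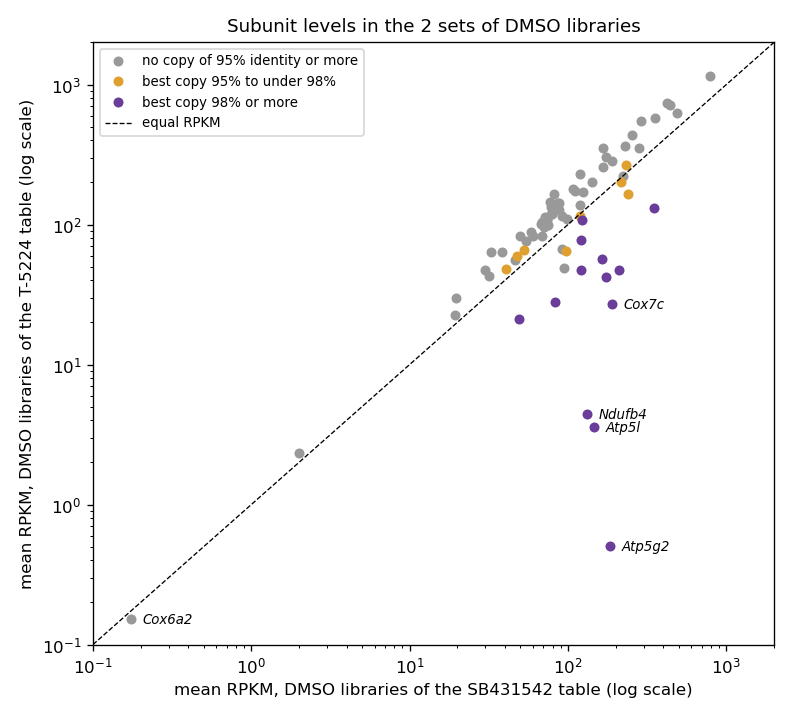
Mean RPKM in DMSO of 76 subunits in the SB431542 table (x axis) and the T-5224 table (y axis), both on log scales, with color for the identity of the best copy elsewhere in the genome (Ndufb8, not searched, is drawn in gray). Most subunits without a copy lie above the dashed line of equal RPKM, and the 13 with a copy of at least 98% lie below it, with Atp5g2 the farthest.

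Promoters of respiratory genes are known for sites of the factors NRF1, the ETS factor GABP (also called NRF2), YY1 and ERR. RefSeq promoter windows (GRCm38.p6, 250 bases before to 50 after the start) were matched for 67 of the 80 symbols and searched on both strands. The NRF1 letters GCGCATGC were in 14.9% of the subunits, against 3.93% of 17491 genes, the ETS letters CCGGAAG in 23.9% against 12.9%, the YY1 letters AANATGGCG in 14.9% against 3.64% and the ERR letters TCAAGGTCA in 2.99% against 0.377%. The AP-1 letters TGANTCA were in 10.4% against 8.12%. Of the 7 subunits with an AP-1 match, 2 fell with T-5224 (Uqcrh and Ndufa9) and 5 rose (Ndufa5, Ndufa13, Cox7c, Atp5c1 and Atp5g1). Of the 16 with an ETS match, 10 fell and 4 rose, of the 9 tested with an NRF1 match 4 fell and 3 rose, and of the 10 with a YY1 match 4 fell and 5 rose. Both subunits with an ERR match, Sdhd and Atp5g3, fell. Of the 63 matched subunits tested, 26 fell and 26 rose. A match of letters is a description and not a site.

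The promoters of Uqcrh and Atp5k, the subunits with the 2 largest falls, and of Sdhb, with the largest rise of a subunit abundant in DMSO, are shown with their matches. Each runs from 250 bases before the RefSeq start to 20 after it in GRCm38.p6, with matched letters in capitals (NRF1 as GCGCATGC or its reverse complement, ETS as CTTCCGG or CCGGAAG, AP-1 as TGACTCA). Uqcrh (chr4:116075051-116075320, minus strand) holds an AP-1 and an ETS match, and Atp5k (chr5:108434380-108434649, minus strand) and Sdhb (chr4:140961021-140961290, plus strand) hold NRF1 and ETS matches.
Uqcrh: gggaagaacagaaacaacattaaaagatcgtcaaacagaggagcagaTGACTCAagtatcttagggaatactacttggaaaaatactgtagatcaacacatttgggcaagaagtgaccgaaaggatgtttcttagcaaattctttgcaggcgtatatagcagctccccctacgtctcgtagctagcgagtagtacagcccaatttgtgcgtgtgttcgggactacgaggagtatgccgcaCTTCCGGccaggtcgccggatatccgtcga
Atp5k: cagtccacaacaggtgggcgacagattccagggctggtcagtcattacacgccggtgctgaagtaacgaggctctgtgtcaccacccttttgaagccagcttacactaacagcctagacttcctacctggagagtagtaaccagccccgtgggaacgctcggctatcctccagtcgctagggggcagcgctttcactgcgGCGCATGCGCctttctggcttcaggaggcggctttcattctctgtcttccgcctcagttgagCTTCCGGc
Sdhb: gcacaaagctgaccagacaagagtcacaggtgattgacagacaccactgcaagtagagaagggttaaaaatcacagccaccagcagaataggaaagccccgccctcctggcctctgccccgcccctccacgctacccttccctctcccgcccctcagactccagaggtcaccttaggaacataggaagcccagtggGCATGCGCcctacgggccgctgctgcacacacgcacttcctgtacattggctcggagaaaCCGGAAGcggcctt
Atp5k and Sdhb hold the same pair of matches and moved in opposite directions with T-5224 (−1.35 and 0.95).

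The genes that assemble and feed the complexes moved both ways with T-5224 as well, where 39.4% of all genes tested were lower and 40.3% higher. Of the 16 complex I assembly factors, 6 fell and 10 rose, the widest being Ndufaf6, from 4.42 to 11.6 RPKM (log2 fold change 1.30, adjusted p = 6.89e-08). Of the 26 for complex IV, 7 fell and 12 rose, with Higd1a, a hypoxia-inducible factor of the complex, from 13.5 to 5.30 RPKM (−1.25, adjusted p = 1.42e-06). The complex II factor Sdhaf3, which helps mature Sdhb, rose from 7.52 to 15.5 RPKM (0.99), while Sdhaf4, which acts on Sdha, fell from 32.4 to 17.3 RPKM (−0.89, chosen after its value was seen). Uqcc3, of the complex III factors (2 of 6 lower, 3 higher), fell from 27.9 to 12.5 RPKM (−1.12), and Fmc1, of the complex V factors (1 of 5 lower, 3 higher), rose from 22.7 to 40.2 RPKM (0.81). Among genes of ubiquinone synthesis, 2 of 13 fell and 8 rose, with Coq8a the farthest, from 3.70 to 0.287 RPKM (−2.42). Of the other dehydrogenases that feed ubiquinone, 0 of 6 fell and 3 rose, led by Sqor (0.73). Pyruvate dehydrogenase and the citric acid cycle had 9 of 18 lower and 7 higher, and Idh2, the mitochondrial NADP-dependent isocitrate dehydrogenase, fell from 66.9 to 25.3 RPKM (−1.39, adjusted p = 6.13e-09).

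Of the genes that copy and transcribe mitochondrial DNA, 3 of 14 fell and 8 rose with T-5224. The shares over all genes tested were 39.4% lower and 40.3% higher. Mterf2 was at 4.07 RPKM in DMSO and at 0.484 RPKM with T-5224 (−2.21). Of the 10 tested nuclear regulators of respiratory genes, 3 fell and 4 rose, with Pprc1, a coactivator of the PGC-1 family, going from 14.9 to 36.1 RPKM (1.25, adjusted p = 6.13e-09). Of the carriers and subunits outside the symbol rule, 3 of 6 fell and 2 rose, and the farthest was Ndufa4l2, a hypoxia-induced relative of Ndufa4, at 20.6 and 60.8 RPKM in DMSO and at 0.703 and 0.524 RPKM with T-5224 (−5.02). Coq8a, Mterf2 and Ndufa4l2 passed the limit only through their DMSO libraries, so no p is given for them. Each is included in the count of lower genes of its list.

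With SB431542 fewer members of these lists passed than with T-5224. By list, the share higher ran from 0% to 36.4% and the share lower from 0% to 16.7%. Of all genes tested, 10.2% were higher and 10.0% lower. The regulators had 4 of 11 higher and 0 lower. Among the 4 was Ppargc1b (PGC-1β), which went from 0.950 to 1.86 RPKM (log2 fold change 0.70). It passed the limit only through its SB431542 libraries and is given without a p. Of the citric acid cycle genes 4 of 18 were higher and 0 lower, with Idh2 going from 28.6 to 34.9 RPKM (0.28, adjusted p = 0.0309). Of the complex I assembly factors 3 of 16 were higher, led by Ndufaf5 (0.42, adjusted p = 0.0139), and of those of complex IV 4 of 26, led by Cmc2 (0.36, adjusted p = 0.00688), with 0 lower in either. In ubiquinone synthesis 1 of 12 was lower, Coq8b (−0.40, adjusted p = 0.0356), and 2 were higher. Sqor (−0.33, adjusted p = 0.0434) was the 1 of 6 other dehydrogenases that was lower. Among the 14 genes for mitochondrial DNA 1 was lower, Mterf2 (−0.41, adjusted p = 0.0189), and 1 higher. Without SB431542 replicate 1 the adjusted p of Sqor, Coq8b, Mterf2, Idh2 and Ndufaf5 was 0.142, 0.105, 0.0700, 0.117 and 0.0621. Of the assembly factors of complexes II, III and V and of the 5 carriers and other subunits tested, none passed. Cyc1, at 92.7 RPKM in DMSO and 124 RPKM with SB431542, had a log2 fold change of 0.44 (adjusted p = 0.0733), and without DMSO replicate 1 it passed (0.25, adjusted p = 7.42e-04).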

How the data were processed

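RNA-seq of ASZ001 cells was analysed in 10 libraries in 2 tables. The authors deposited RPKM values per gene and library, made with HOMER after alignment with TopHat to mm9, from a stranded mRNA kit; the counting options are not given in the sources used here. All 10 columns were used. The DMSO columns of the T-5224 table are numbered 1 and 2, and the labels number these libraries 4 and 5. Entries named by a date in place of a gene were dropped (22 and 23).

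Log2(RPKM + 0.5) was fitted within each table by limma 3.58.1 (R 4.3.3), treated against DMSO and two-sided, with eBayes and its trend option. Genes whose mean RPKM reached 1 were tested, and p-values were adjusted over all of them (Benjamini-Hochberg). A count test was not run, since the values are RPKM. Calls are at an adjusted p under 0.05. No list was tested as a set, and each is described by counts and medians. The members and lists were chosen with earlier results of these data known. Genes named are those beyond 2-fold, the 2 lowest and 2 highest of each complex, core and paralogue members, the members next to the RPKM limit, and the largest change of each other list. Others are examples chosen after their values were seen.

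Depth was worked out from RPKM of small RNAs under 250 bases, which lie on a ladder of whole reads (99.1% to 100.0% of values within 0.05 of a read). Reads behind a gene are RPKM times length and depth, and their intervals cover counting error only. No pair of replicates agreed within counting noise (chi-square per gene, mean 4.74 to 59.2 and median 1.52 to 10.5). Such spread cannot show that libraries came from separate cultures. Each library was counted as a replicate, since the study describes 2 or 3 biological replicates a condition for these cells. Positions are from GENCODE for NCBIM37. Copies were found with blastn 2.17.0. The script was tested on simulated data. Alternatives were other pseudocounts (0.1 and 1), filters, scalings, no trend, a replicate block and each library left out. Sequences from chromosome 18, and the values of 1 complex I subunit that is included in the counts, are not reported here.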

Additional observations from a re-analysis of the deposited data

How the results depend on the processing

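With T-5224 the counts of 32 lower and 31 higher subunits stayed within 1.5 times under every alternative that kept all libraries. None of the genes named by rule changed direction. Among those genes, calls were lost under some alternatives for Sdhc, Uqcrfs1, Cox4i1, Atp5b, Atp5c1 and Atp5e. Their log2 fold changes were at most 0.22 in size. Other subunits lost calls as well, among them Ndufa13 (0.15) with no filter on low values, quantile normalization and no trend. The subunits lower beyond 2-fold were 3 among those with no near-identical copy, and those higher beyond 2-fold were 0 without Cox6a2 (both chosen after seeing the data). Their median was −0.07 with quantile normalization and ran from −0.04 to 0.07 with each library left out. With SB431542 the count of 4 higher subunits was 2 with no filter on low values and 0 to 25 with each library left out, and that of lower subunits 0 to 1. With the replicate block it was 2 (Ndufs7 and Sdhb), but the numbers share no pairing in the labels, and libraries with the same number correlated at −0.15, 0.15 and −0.09. Directions turned for subunits near 0. Under quantile normalization Ndufs1, Cox4i1 and Cox6a1 were at −0.01, −0.07 and −0.06. With each library left out, values ran from −0.16 to 0.12 for Uqcrb, −0.16 to 0.02 for Uqcrc1, −0.21 to 0.01 for Cox5b, −0.13 to 0.05 for Atp5h, −0.01 to 0.09 for Ndufv2, −0.07 to 0.02 for Cox7a2l (0.00 without SB431542 replicate 3) and −0.08 to 0.07 for Ndufs1. No paired analysis was possible for T-5224 because its groups share no replicate numbers in the labels. For these turns the cause was not tested. With 2 or 3 libraries a group, the spread between libraries and not the depth limits precision, except in genes with few reads.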
